A study of Gallus gallus with 6 samples.

Results

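Expression of 10 circadian clock genes was described in the liver of laying and juvenile hens. The genes were picked for their place in the clock, with earlier results of these data known. All 10 are among the 14078 genes of the table: CLOCK, ARNTL and NPAS2 (the activators of the loop), PER2, PER3, CRY1 and CRY2 (its repressors), NFIL3 and TEF (which compete at the D-box) and BHLHE40 (a repressor at the E-box). The L30 group was 3 laying hens of 30 weeks and the L20 group was 3 juvenile hens of 20 weeks, all of the Lushi chicken (Lushi green shell chicken in the paper). The labels name no allele or agent for either group, which differed by design in age and in the onset of lay. Each hen was a separate animal with 1 RNA-Seq library of its liver. The hour of day at which each hen was killed is not given in the sources used here, so a difference in sampling time and a difference of stage cannot be told apart for these genes.

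The circadian clock is a feedback loop of transcription that runs in most cells and follows the day. CLOCK, or its close relative NPAS2, pairs with the ARNTL protein (also called BMAL1) and activates genes that carry an E-box, among them the PER and CRY genes. PER and CRY proteins build up, enter the nucleus and shut off the pair that induced them. A second arm acts on D-boxes, where TEF activates and NFIL3 represses, and nuclear receptors such as those of the REV-ERB family act on ARNTL through yet another element. In the liver of mammals the clock times much of lipid, sterol and glucose metabolism, and feeding and glucocorticoids can shift its phase. Because the activators and the PER genes peak at different times of day, 1 sample per hen gives a single point of each rhythm.

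Between 13764705 and 21570330 reads on genes were recovered per hen, and 12911 to 13376 genes were above 0. The mRNAs of the yolk proteins (APOVLDLII, VTG1 and VTG2) took 14.2% to 16.7% of the reads in L30 hens, against 0.00348% to 0.0279% in L20 hens. Hepatocyte markers were abundant in every hen (summed FPKM of 7 markers 23683 to 32189 in L30 and 31128 to 35658 in L20). FPKM is the number of fragments of a gene scaled by its exon length and by library. In the deposited values the library scaling followed the factor that divides the deposited count signal, rather than the number of reads. In that signal a read counted as 0.980 in L20 hen 1 (14432550 recovered reads) and 1.45 in L30 hen 2 (13764705 recovered reads). Differences are given on the scale of log2(FPKM + 1) as L30 minus L20, which understates the change of weakly expressed genes. A gene was called DE at an unadjusted p of 0.05 or less in the limma fit, and SDE at an adjusted p of 0.05 or less together with group means that differed at least 2-fold either way. Adjusted p-values run over all genes tested. A two-sided exact permutation test of 3 hens against 3 cannot give a p below 0.1.

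By unadjusted p, laying livers held less mRNA of all 3 activators and more of both PER genes and of TEF and BHLHE40. The 2 CRY genes and NFIL3 did not pass the test. PER2 and BHLHE40 overlapped between the groups, and neither reached an adjusted p of 0.05 in any of 18 alternative fits. The genes were chosen with earlier results of these data known, so the counts are a description and no test of the set. Of the 10 genes, 7 were DE, against 22.7% of the 9732 genes tested. Of these, 4 were higher in L30 (TEF, PER2, PER3 and BHLHE40; background 11.0%) and 3 were lower (ARNTL, CLOCK and NPAS2; background 11.7%). Only NPAS2 was SDE in the limma fit, on the lower side, where 2.75% of all genes were SDE (1.82% higher and 0.935% lower). On recovered reads edgeR gave an adjusted p of 0.05 or less to 3 of the 10 genes (NPAS2, PER3 and TEF; 4.87% of all genes), all of them SDE there (3.83% of all genes). DESeq2 did so for these and for CLOCK and ARNTL, 5 of the 10 (11.0% of all genes), of which 3 were SDE (6.91% of all genes). The groups did not overlap for 5 of the 10 genes, 2 higher and 3 lower in L30, against 30.0% of all genes tested (14.0% higher and 16.0% lower). The median size of the difference was 0.67 over the 10 genes and 0.23 over all genes tested.

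**Figure D1:**
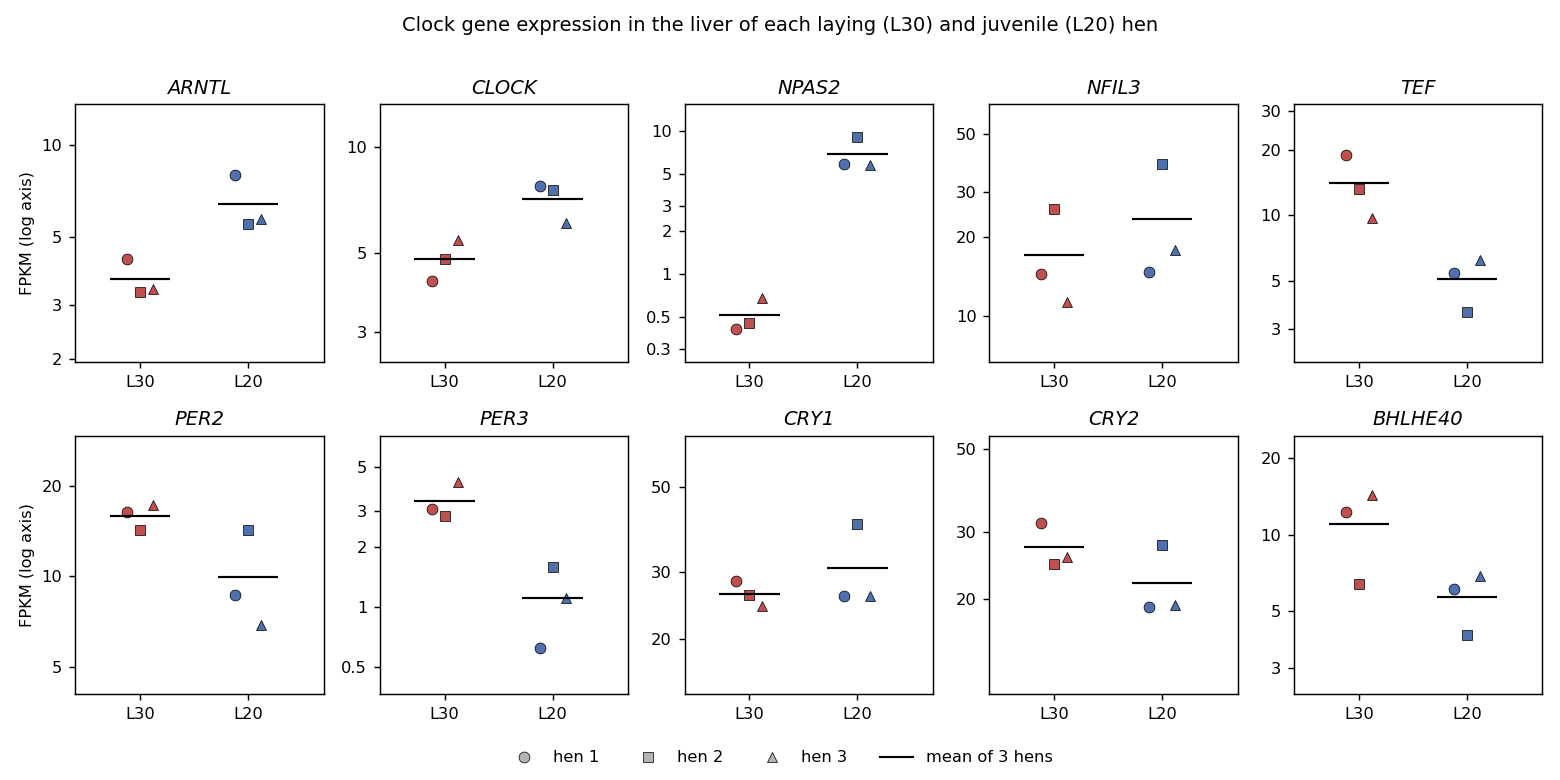
FPKM (y axis, logarithmic) of the 10 clock genes in each hen, L30 in red and L20 in blue, with a mark shape for each hen and a black line at the mean of 3 hens. The L30 and L20 hens are separate for ARNTL, CLOCK, NPAS2, TEF and PER3 and overlap for the other 5 genes.

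The activators were read first. NPAS2 encodes a basic helix-loop-helix PAS protein that can take the place of CLOCK beside ARNTL. NPAS2 (ENSGALG00000016774; galGal4 chr1:132654999-132723188) had 0.410, 0.456 and 0.676 FPKM in L30 hens 1, 2 and 3, against 5.88, 8.98 and 5.80 FPKM in L20 hens 1, 2 and 3. Every L20 hen was thus far above every L30 hen. The ratio of the means was 0.0746, which is 13.4-fold lower in L30, and the difference was -2.36 (SE 0.18, limma adjusted p = 0.00341, exact permutation p = 0.1). The L30 values rest on few reads, namely 42, 26 and 44, against 507, 944 and 538 in L20. On these reads the edgeR log2 fold change of NPAS2 was -3.71 (adjusted p = 0.00182). By unadjusted p NPAS2 ranked 24 of the 9732 genes tested.

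CLOCK, the histone acetyltransferase and DNA-binding partner of ARNTL, was lower in L30 by a much smaller margin. The FPKM of CLOCK (ENSGALG00000013793; chr4:64696006-64717393) was 4.19, 4.83 and 5.45 in L30 hens and 7.73, 7.54 and 6.10 in L20 hens. No L30 hen reached the lowest L20 hen. The ratio of the means was 0.677, and the difference of -0.48 (SE 0.14) was DE but missed the adjusted threshold (limma adjusted p = 0.111, exact permutation p = 0.1).

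ARNTL, the common partner of CLOCK and NPAS2, behaved much like CLOCK in size. For ARNTL (ENSGALG00000005378; chr5:6981155-7024873) the L30 hens had 4.24, 3.32 and 3.40 FPKM and the L20 hens had 7.96, 5.53 and 5.72 FPKM. The groups were separate, with hen 1 the highest in each. The ratio was 0.570 and the difference -0.66 (SE 0.16, limma adjusted p = 0.0801, exact permutation p = 0.1). The table gives ARNTL the same locus as its neighbour BTBD10, so the split of reads between these 2 genes is uncertain. BTBD10 had 2.39, 1.31 and 1.81 FPKM in L30 and 1.72, 1.49 and 1.54 FPKM in L20, a difference of 0.12 (SE 0.16) that was not DE.

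The repressors of the loop were read next, by family. PER2 and PER3 encode PAS-domain proteins that carry CRY to the activator pair. PER3 (ENSGALG00000000573; chr21:291839-308592) had 3.07, 2.83 and 4.22 FPKM in L30 hens, against 0.620, 1.58 and 1.10 FPKM in L20 hens. The lowest L30 hen was above the highest L20 hen, and the ratio was 3.06. The difference was 1.07 (SE 0.21, exact permutation p = 0.1), and its limma adjusted p of 0.0518 was just above the threshold. In edgeR on recovered reads it was 1.65 (adjusted p = 0.0435).

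PER2 (ENSGALG00000005521; chr9:4978757-5005060) had 16.3, 14.2 and 17.2 FPKM in L30 hens and 8.64, 14.2 and 6.91 FPKM in L20 hens. The L30 hens lay close together, and L20 hen 2 alone reached their level, so the groups touched. The ratio was 1.60 and the difference 0.68 (SE 0.25, limma adjusted p = 0.180, exact permutation p = 0.2). The call was lost when L20 hen 1, L20 hen 3, L30 hen 1 or L30 hen 3 was left out (differences 0.48 to 0.95 over all 6 omissions).

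CRY1 and CRY2 encode the cryptochromes, which are the direct inhibitors of the activator pair. These 2 genes had the highest mean FPKM of the 10 in L30. In L30 hen 2, however, NFIL3 (25.8 FPKM) was above CRY2 (24.7 FPKM). By recovered reads PER2 exceeded CRY1 in every L30 hen. CRY1 (ENSGALG00000012638; chr1:53554187-53588375) had 28.3, 26.0 and 24.5 FPKM in L30 and 26.0, 39.9 and 25.9 FPKM in L20. The groups overlapped and L20 hen 2 stood above the other 5 hens. The difference was -0.19 (SE 0.20, limma adjusted p = 0.614, exact permutation p = 0.7), and it was 0.015 without L20 hen 2. CRY2 (ENSGALG00000008436; chr5:23244456-23264618) had 31.9, 24.7 and 25.8 FPKM in L30 and 19.0, 27.8 and 19.3 FPKM in L20. For CRY2, L20 hen 2 was the only juvenile within the range of the layers. The difference of CRY2 was 0.32 (SE 0.19, limma adjusted p = 0.372, exact permutation p = 0.3). Without L20 hen 2 it was 0.49 and DE (limma adjusted p = 0.192).

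At the D-box, the activator and the repressor were measured in the same hens. TEF is a PAR bZIP activator, whose chicken protein is also known as VBP, for the vitellogenin gene element it binds. TEF (ENSGALG00000011958; chr1:49520861-49536052) had 19.0, 13.3 and 9.74 FPKM in L30 hens, against 5.42, 3.59 and 6.24 FPKM in L20 hens. All L30 hens were above all L20 hens, at a ratio of 2.76. The difference was 1.28 (SE 0.27, limma adjusted p = 0.0620, exact permutation p = 0.1). In edgeR on recovered reads it was 1.55 (adjusted p = 0.0409).

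NFIL3 is the bZIP repressor that binds the same element and, in the chicken pineal gland, represses PER2. NFIL3 (ENSGALG00000015209; chrZ:44205923-44207300) had 14.5, 25.8 and 11.2 FPKM in L30 hens and 14.7, 38.2 and 17.8 FPKM in L20 hens. Hen 2 was highest in each group and the groups overlapped widely. The difference was -0.40 (SE 0.43, limma adjusted p = 0.620, exact permutation p = 0.5), and -0.0012 without L20 hen 2.

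BHLHE40, also called DEC1, represses transcription at E-boxes. Its FPKM (ENSGALG00000008308; chr12:18572198-18575093) was 12.3, 6.38 and 14.3 in L30 hens and 6.10, 4.03 and 6.86 in L20 hens. L30 hen 2 fell below L20 hen 3, and hen 2 was the lowest of each group. The ratio was 1.94 and the difference 0.81 (SE 0.31, limma adjusted p = 0.199, exact permutation p = 0.2). This call was also lost when L20 hen 1, L20 hen 2, L30 hen 1 or L30 hen 3 was left out (differences 0.60 to 1.13 over all 6 omissions).

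**Figure D2:**
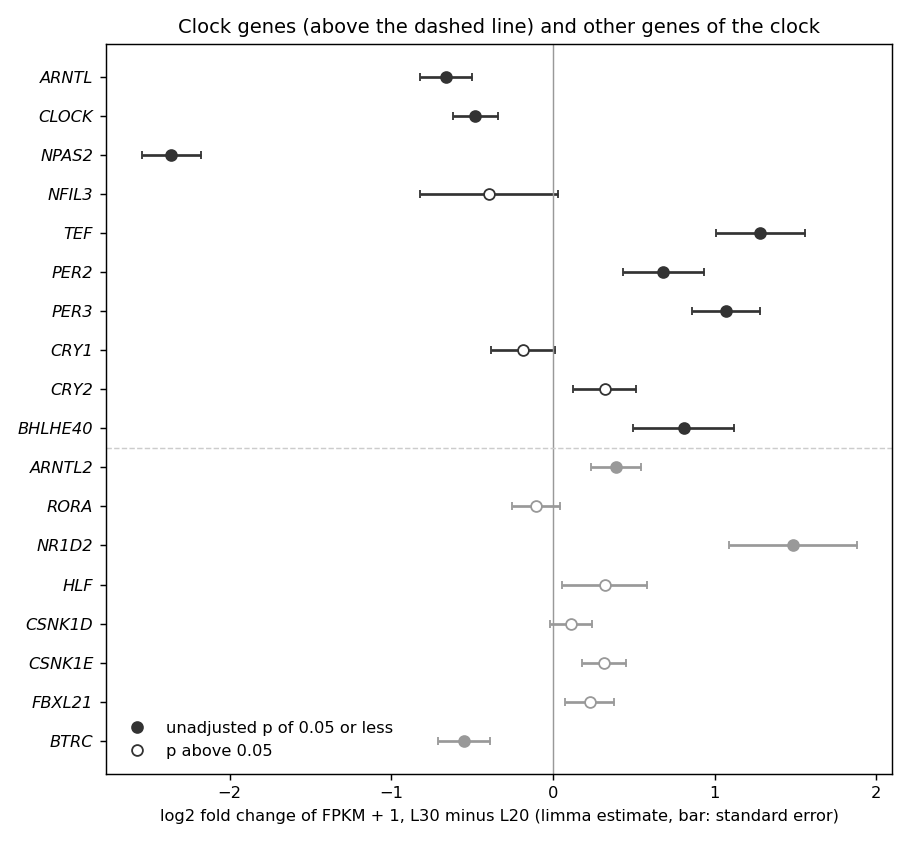
Difference in log2(FPKM + 1), L30 minus L20, of the 10 clock genes from the limma fit over all genes tested, with bars of 1 SE. NPAS2 lies farthest from 0 at -2.36, CLOCK and ARNTL lie at -0.48 and -0.66, and TEF and PER3 lie above 1.

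Per exon length, the order of the genes differed between the groups. In L30 hens the mean FPKM ran CRY2 27.5, CRY1 26.3, NFIL3 17.2, PER2 15.9, TEF 14.0, BHLHE40 11.0, CLOCK 4.82, ARNTL 3.65, PER3 3.37 and NPAS2 0.514. In L20 hens it ran CRY1 30.6, NFIL3 23.6, CRY2 22.0, PER2 9.92, CLOCK 7.12, NPAS2 6.89, ARNTL 6.40, BHLHE40 5.67, TEF 5.08 and PER3 1.10. Most neighbours in these orders had hens in a common range. The neighbours that were separate were BHLHE40 from CLOCK and PER3 from NPAS2 in L30, and CRY2 from PER2 and TEF from PER3 in L20. NPAS2 was thus the weakest of the genes in layers, whereas in juveniles it lay in the same range as CLOCK and ARNTL.

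Ratios between members within a liver do not depend on how its library was scaled. These ratios were chosen after the values were seen and are given without a test. NPAS2 made up 8.91%, 8.62% and 11.0% of the summed FPKM of NPAS2 and CLOCK in L30 hens, against 43.2%, 54.4% and 48.8% in L20 hens. CLOCK thus made up most of the sum in layers. The sum of both was 4.60, 5.28 and 6.13 FPKM in L30 and 13.6, 16.5 and 11.9 FPKM in L20. ARNTL and CLOCK showed no such separation: ARNTL was 38.4% to 50.3% of their sum in L30 hens and 42.3% to 50.7% in L20 hens, and the groups overlapped. The share of PER3 in the PER2 and PER3 sum was 15.9% to 19.7% in L30 hens and 6.69% to 13.8% in L20 hens.

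Among the juveniles the share within the CRY pair varied least from hen to hen of the pairs given here. CRY2 was 52.9%, 48.7% and 51.3% of the CRY1 and CRY2 sum in L30 hens (mean 51.0 ± 2.12, SD, n = 3) and 42.2%, 41.1% and 42.6% in L20 hens (mean 42.0 ± 0.785, SD, n = 3). The shares of the groups did not overlap, although neither gene alone was DE. Most of the L20 spread of the 2 genes was therefore common to both: the CRY1 and CRY2 sum was 60.2, 50.8 and 50.3 FPKM in L30 and 45.0, 67.7 and 45.2 FPKM in L20, with L20 hen 2 highest of all hens. On recovered reads, which are not divided by exon length, the CRY2 shares were 67.6%, 63.8% and 66.1% in L30 and 57.7%, 55.9% and 57.5% in L20. Separate groups were the usual outcome among the pair shares computed. The shares of TEF with NFIL3, PER2 with ARNTL and PER2 with CRY1 were separate too, and only that of ARNTL with CLOCK overlapped.

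The limbs were set against each other in each hen as a limb score, the mean log2(FPKM + 1) of ARNTL, CLOCK, NPAS2 and NFIL3 minus that of PER2, PER3, CRY1 and CRY2. NFIL3 is a D-box repressor and was only counted with the positive limb. Of the 4 genes of the positive limb 3 were DE and lower in L30 (11.7% of all genes; median difference -0.57), and of the 4 genes of the negative limb 2 were DE and higher (11.0% of all genes; median 0.50). The score was -1.71, -1.34 and -1.70 in L30 hens (mean -1.58 ± 0.21, SD, n = 3) and 0.0018, -0.27 and -0.14 in L20 hens (mean -0.14 ± 0.14, SD, n = 3). The groups did not overlap, and the difference of -1.45 was -0.98 when NPAS2 was left out of the score and -1.64 when NFIL3 was. ARNTL, CLOCK, NPAS2 and PER3 were each separate between the groups. The separation of the score thus repeats values already given and adds no separate support.

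**Figure D3:**
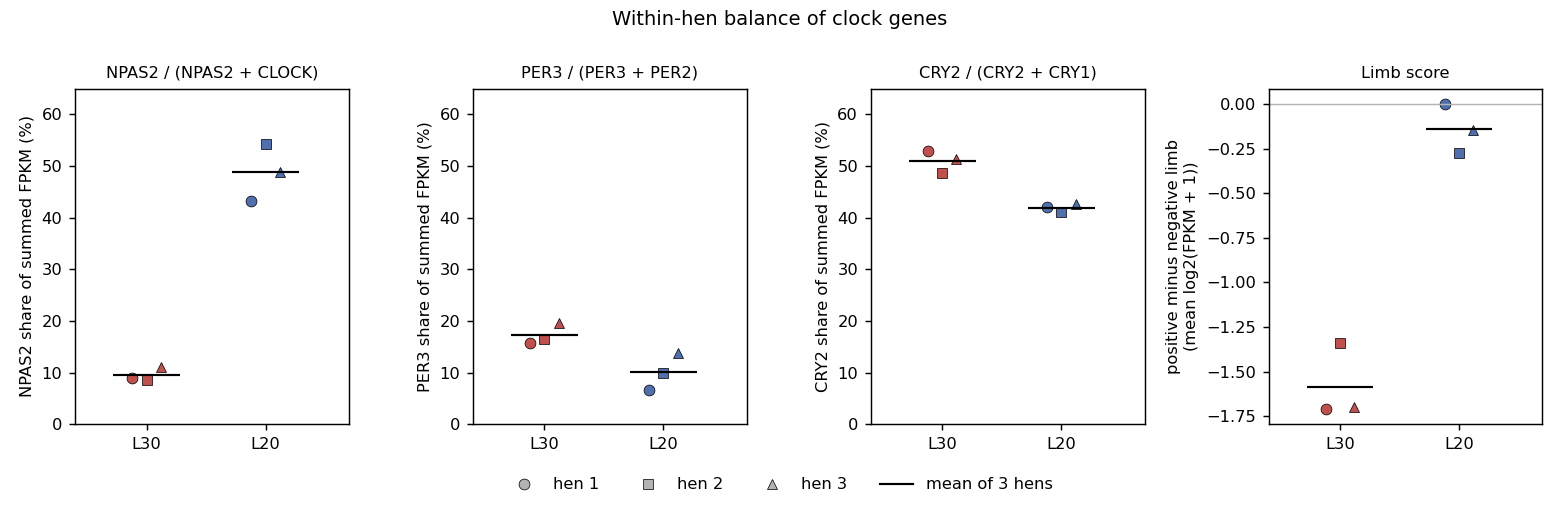
Share of NPAS2, PER3 and CRY2 in the summed FPKM of each pair (percent) and the limb score, 1 point per hen, L30 in red and L20 in blue, with a line at the mean of 3 hens. NPAS2 makes up 8.62% to 11.0% of its pair in L30 hens and 43.2% to 54.4% in L20 hens, and the groups do not overlap in the pairs shown, which were chosen after the values were seen.

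From hen to hen within a group the 10 genes varied a little more than other genes, with a median pooled SD of 0.27 on the log2(FPKM + 1) scale, against 0.21 over all genes tested. NFIL3 varied most (pooled SD 0.64, larger than in 93.4% of the genes tested), followed by BHLHE40 (0.46) and TEF (0.40). CLOCK varied least, at 0.16. The highest L20 hen exceeded the lowest 2.06-fold for PER2, whereas the L30 hens of PER2 spanned 1.21-fold.

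L20 hen 2 was often at an end of the juveniles, among these genes as among all genes. It was the highest of the 3 for 6 of the 10 genes (NPAS2, NFIL3, PER2, PER3, CRY1 and CRY2; 40.3% of all genes tested) and the lowest for 3 (ARNTL, TEF and BHLHE40; 35.3% of all genes). It was thus at an end for 9 of 10, against 75.6% of all genes, where the other hens were at an end for 58.6% to 68.9%. Its PER and CRY mRNAs were high together, by 0.32 to 0.53 above the L20 mean on the log2(FPKM + 1) scale, and its NFIL3 by 0.79, while TEF and BHLHE40 were each 0.38 below. NPAS2, and NFIL3 counted with the positive limb, were thus high in this hen together with all 4 genes of the negative limb. Between the groups, by contrast, NPAS2 and the PER genes differed in opposite directions.

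In L30, hen 2 had the highest NFIL3 (0.64 above the group mean) and the lowest BHLHE40 (0.64 below). L20 hen 2 likewise had the highest NFIL3 and the lowest BHLHE40 of its group, but its TEF was as far below the group mean as its BHLHE40. In each group the hen with the most NFIL3 thus had the least BHLHE40. This pair of genes was picked after the values were seen, among 3 hens per group. The birds are different animals, and the labels give the number 2 no meaning beyond a replicate. Whether same-numbered hens shared a day or an order of processing is not given. When L20 hen 2 was left out, 7 members were again DE, with CRY2 in place of BHLHE40, against 19.4% of all genes tested in that fit, and the difference of PER2 was 0.95 (limma adjusted p = 0.0808) in place of 0.68. NPAS2 was at -2.18 without this hen (limma adjusted p = 0.00637).

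**Figure D4:**
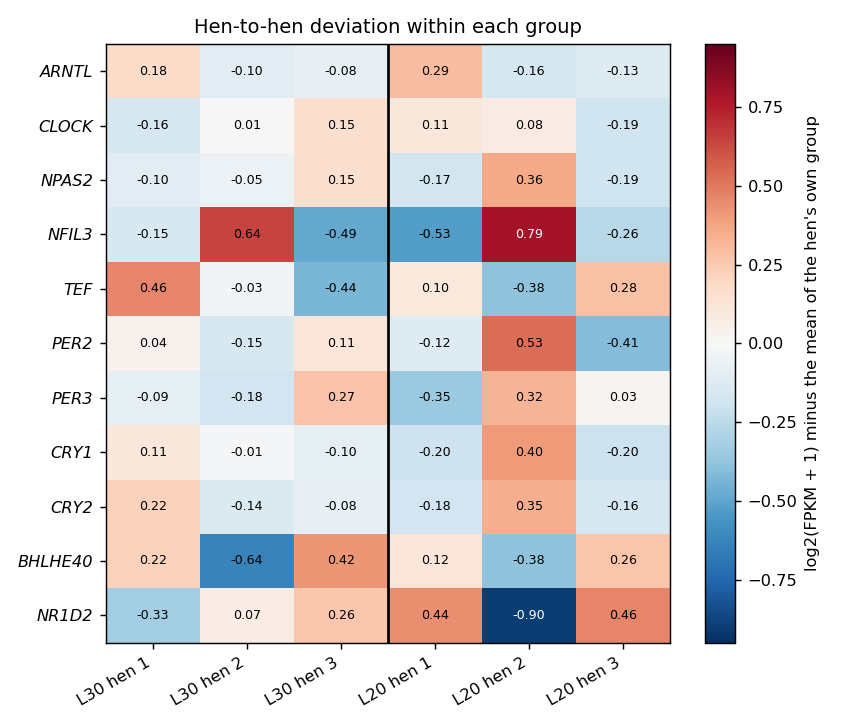
Deviation of each hen from the mean of its own group in log2(FPKM + 1), for the 10 clock genes and NR1D2, with L30 hens left of the black line and L20 hens right of it. L20 hen 2 is above its group for NPAS2, NFIL3, PER2, PER3, CRY1 and CRY2, and NR1D2 is 0.90 below in that hen.

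Of 17 other clock genes listed by role, 9 were in the table and 8 passed the filter on low values. Among these 2 were DE and higher in L30 (11.0% of all genes) and 1 was DE and lower (11.7% of all genes), with a median difference of 0.27, against -0.04 over all genes tested. NR1D2 (listed as REV-ERBB), a nuclear receptor that represses ARNTL and NPAS2 in mammals, had 9.47, 12.8 and 14.7 FPKM in L30 hens and 5.38, 1.51 and 5.46 FPKM in L20 hens. Every L30 hen was above every L20 hen, at a ratio of 2.99 and a difference of 1.48 (SE 0.40, limma adjusted p = 0.0937). L20 hen 2 had the least NR1D2 of all hens, and among the juveniles it had the most NPAS2 and the least ARNTL. Without it the NR1D2 difference was 1.03 (limma adjusted p = 0.105).

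ARNTL2, a paralogue of ARNTL, was higher in L30, with 2.96, 4.25 and 3.17 FPKM against 2.79, 2.30 and 2.09 FPKM in L20 (difference 0.39, SE 0.15, limma adjusted p = 0.199). BTRC, the F-box protein that marks phosphorylated PER for degradation, was lower in L30, with 4.74, 4.60 and 5.74 FPKM against 6.23, 8.94 and 8.47 FPKM in L20 (difference -0.55, SE 0.16, limma adjusted p = 0.111). The groups were separate for both genes. ARNTL2 thus lay on the other side of 0 from ARNTL. All 8 listed genes coupled to the clock in the liver of mammals (such as NAMPT, ALAS1 and WEE1) were in the table. Of these, 7 were tested, with a median difference of 0.05. The number DE was 0 in the limma fit, in edgeR and in DESeq2, against 22.7%, 23.1% and 19.6% of all genes. It was 2 with the replicate block (19.2% of all genes) and 1 without L20 hen 1 (20.3%) or without L30 hen 1 (19.5%).

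Markers of other liver cells were read beside these genes, since in whole liver fewer cells of a type and less RNA per cell cannot be told apart. Leukocyte markers (6 of 6 tested) were DE and lower in L30 for 4 of 6, with a summed FPKM of 433 to 541 in L30 and 613 to 713 in L20 and ratios of the means between 0.563 and 0.769. Endothelial markers were DE and lower for 3 of 3 tested (sums 20.8 to 35.4 in L30 and 46.9 to 62.3 in L20), and stellate and fibroblast markers for 2 of 4 (sums 63.4 to 85.5 in L30 and 78.3 to 97.9 in L20). Of all genes tested, 11.7% were DE and lower in L30. Most of the leukocyte sums was CD74 (mean FPKM 426 in L30 and 554 in L20), which was not DE. Most of the stellate and fibroblast sums was DCN (62.5 in L30 and 61.5 in L20), which was not DE either. The ratio of the means was 0.570 for ARNTL, 0.677 for CLOCK and 0.0746 for NPAS2. It ran from 0.563 to 0.769 over the leukocyte, 0.551 to 0.585 over the endothelial and 0.340 to 4.36 over the hepatocyte markers. Which cells held the clock gene mRNAs was not measured. Erythroid markers were DE for 0 of 3 (sums 69.7 to 155 in L30 and 45.6 to 181 in L20) and bile duct markers for 0 of 2 tested. The sums of the 3 bile duct markers in the table were 39.0 to 70.7 in L30 and 19.1 to 41.1 in L20, mostly EPCAM. Of all genes tested, 22.7% were DE in either direction. The 7 hepatocyte markers went both ways: 2 were DE and higher in L30 (ALB and AHSG; 11.0% of all genes) and 2 were DE and lower (APOA1 and FGB; 11.7% of all genes). None of the markers found in the table had a group mean of 0. The part of cell makeup in the clock gene differences was not tested.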

How the data were processed

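The table holds liver RNA-Seq of 6 hens (3 L30 and 3 L20). The authors cleaned reads with FASTX-Toolkit after base calling with CASAVA 1.8.2, mapped them to galGal4 with TopHat2 2.0.9, assembled transcripts with Cufflinks, and deposited gene-level FPKM for each hen. They also deposited a count signal per gene, divided by a factor per library. Rounding it to whole reads gave recovered reads, and at least 99.8% of low values were whole within 0.05 read. In 3 libraries 1 or 2 values lay below 1 read.

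In R 4.3.3, log2(FPKM + 1) was fitted with limma 3.58.1 (eBayes trend, two-sided). Benjamini-Hochberg adjustment ran over 9732 genes, those whose mean FPKM reached 1. Alternatives changed the pseudocount (0.1, 0.01), filter, scaling, replicate block and eBayes options, left out each hen, and used edgeR 4.0.16 and DESeq2 1.42.0 on recovered reads. Other steps used Python 3.11.15 with scipy 1.17.1, numpy 2.4.6 and pandas 2.3.3. The members and lists were chosen with earlier results of these data known. Named genes are all 10 members, and listed clock genes that were DE. BTBD10 and genes of the other lists were named after their values were seen. Names are those of the table (NAMPT is listed as PBEF1). Methods were tested on simulated data. Promoter sequences were not analysed here, and 1 listed clock gene is not reported here.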

Additional observations from a re-analysis of the deposited data

How the results depend on the processing

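CLOCK, ARNTL, NPAS2, PER3 and TEF kept their direction and a p of 0.05 or less under every alternative that tested them. PER2 lost its call in 5 of 18 alternatives and BHLHE40 in 5 of 18. CRY1 ranged from -0.29 to 0.015 when single hens were left out, turning positive without L20 hen 2. SDE calls among the 10 genes were 3 (NPAS2, PER3 and TEF) in edgeR on recovered reads with or without a filter and 3 in DESeq2, 2 (NPAS2 and PER3) after median-ratio scaling, 0 with a mean FPKM of at least 5, where NPAS2 and PER3 were not tested, and 1 to 2 when hens were left out. Over all genes, SDE calls were 268, against 429 and 431 in edgeR with and without a filter, 877 in DESeq2, 54 with the replicate block and 64 to 385 when hens were left out. DE genes were 2213 of 9732 tested (22.7%, 1070 higher and 1143 lower), against 1459 of 5771 (25.3%) with a mean FPKM of at least 5. The DE genes split into 1268 higher and 949 lower by median-ratio scaling but 931 higher and 1355 lower by upper-quartile scaling. Deviations of same-numbered hens correlated at 0.017, 0.012 and 0.094 between the groups, against -0.074 to 0.059 for other pairs of hens. All were small, the value for replicate 3 lay above the other pairs, and a shared processing order by number was not tested. With the replicate block 6 members were DE, PER2 being lost (limma adjusted p = 0.280). The limb score difference of -1.45 was -1.93 with a pseudocount of 0.1, -0.98 without NPAS2, -1.67 without CRY1 and -2.05 on scaled counts. NPAS2 had only 26 to 44 reads in L30 hens, which limits the precision of its level there. The promoter motif search was not run.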

Other observations

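Glucocorticoids reset clocks in the liver of mammals, and 6 genes that respond to them were listed. All 6 were in the table, 3 were DE and higher in L30 (11.0% of all genes), 0 were DE and lower in limma (11.7% of all genes), and the median difference was 1.18. The ratio of the mean FPKM, L30 over L20, was 1.79 for TSC22D3, 1.04 for SGK1 and 0.690 for DUSP1, none of them DE. ZBTB16, a zinc finger repressor, had 14.9, 19.0 and 8.95 FPKM in L30 hens and 3.02, 1.51 and 3.75 FPKM in L20 hens (limma adjusted p = 0.0388). FKBP5 (listed as FKBP51), which binds the receptor complex, had 36.0, 79.0 and 120 FPKM in L30 hens and 35.1, 13.1 and 18.5 FPKM in L20 hens (limma adjusted p = 0.122). KLF9 had 12.8, 34.5 and 9.63 FPKM in L30 hens and 5.21, 4.13 and 5.38 FPKM in L20 hens (limma adjusted p = 0.105). The groups did not overlap for these 3 genes, which were named because they were DE, so the lowest of all hens was a juvenile. It was L20 hen 2 each time, a hen that was the lowest juvenile for 35.3% of all genes tested. Among the listed genes that were not DE, L20 hen 2 was the lowest juvenile for DUSP1, in the middle for TSC22D3 and the highest for SGK1. Of 5 immediate early genes in the table only FOS was DE, where 22.7% of all genes tested were. It had 2.96, 2.48 and 3.33 FPKM in L30 hens and 6.36, 8.96 and 5.20 FPKM in L20 hens (limma adjusted p = 0.0535).

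Among 5341 named genes whose mean FPKM reached 5, those most like the limb score over the 6 hens were LDHB (Pearson r = 0.991), C17ORF101 (0.989), PSMD4 (0.986), RAB32 (0.979) and HDAC1 (0.977), and those most opposed were SUMO3 (-0.996), CCDC109B (-0.995), EBAG9 (-0.995), SS1R (-0.994) and PHLDB2 (-0.993). The score separates the groups, so these values mostly describe genes that do so too, and they carry no p. LDHB, a subunit of lactate dehydrogenase, had 141, 269 and 101 FPKM in L30 hens and 1567, 1234 and 1710.2 FPKM in L20 hens.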
